A study of Mus musculus with 8 samples.

Results

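The tricarboxylic acid (TCA) cycle, the entry of pyruvate into it, the use of glutamine and aspartate by it and the mitochondrial oxidation of fatty acids were followed through 34 genes. They were chosen by symbol for their roles in these pathways, with earlier results of these data known, out of 24421 genes in the table. The shares of all genes given beside their counts are therefore no test of the list. All 34 had at least 1 CPM (read counts scaled to a common library total) in at least 2 of the 8 libraries, as did 12194 genes in all. RNA was measured by poly-A sequencing in mouse bone marrow-derived macrophages (BMMs), cells grown in culture from marrow precursors. The wild-type groups (WT) were sampled untreated at day 0 and after 2 days with tumour necrosis factor (TNF) at 40 ng/ml. The knockout groups carried loxP-flanked alleles of Rbpj and a Cre recombinase expressed from the LysM (Lyz2) locus (Rbpj f/f;LysMCre), and were sampled at the same times with the same dose. Rbpj encodes RBP-J, a transcription factor through which Notch receptors act on DNA. LysM-Cre acts in cells of the myeloid lineage and does not recombine every cell. Each of the 4 groups held 2 libraries, and ages and sexes of the mice are not given in the sources used here. Since no cells were cultured untreated to day 2, the effects of TNF and of the time in culture cannot be told apart, and "TNF" stands for their sum. Whether the 2 libraries of a group come from different animals is not stated, and p-values reflect only how far these libraries spread.

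The TCA cycle oxidises acetyl groups to carbon dioxide and passes the electrons to the respiratory chain. Pyruvate reaches it through a carrier in the inner mitochondrial membrane and the pyruvate dehydrogenase complex, glutamine reaches it as 2-oxoglutarate, and fatty acids reach it as acetyl-CoA made by beta oxidation. In macrophages exposed to inflammatory signals the cycle is known to be interrupted near aconitate, part of which is diverted to itaconate, whereas osteoclasts, which form from the same precursors, are rich in mitochondria.

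The libraries held from 9855859 to 35653203 reads in genes, with the lowest depth in replicate 1 of the knockout with TNF. Rbpj, the targeted gene, was at 178 to 226 CPM in the 4 wild-type libraries and at 21.4 to 38.9 CPM in the 4 knockout libraries, with no overlap. Osteoclast markers in sum were higher with TNF in both genotypes and, with TNF, higher in the knockout than in wild type. For genotype after TNF, limma called 0 of the 9 without the replicate as a block and 9 with it. The shares of all genes called higher were 0.0082% and 5.53%. At day 0 it called 0 of the 9 for genotype in either fit. The summed level of 9 of them (Ctsk, Acp5, Mmp9, Dcstamp and 5 others) was 61.0 and 152 CPM in untreated wild type and 73.4 and 160 CPM in the knockout at day 0. With TNF it was 6300 and 4822 CPM in wild type and 17922 and 44548 CPM in the knockout. Macrophage markers (8 of 9 listed in the table) summed to 4620 to 9907 CPM over the 8 libraries, but did not move as one. Mrc1, the macrophage mannose receptor, was at 881 to 1457 CPM at day 0 and 59.7 to 106 CPM with TNF, and fell in both genotypes (-3.74 ± 0.28 and -3.60 ± 0.28 on the log2 scale in wild type and knockout, limma adjusted p = 0.01001 and 0.00457). The Fc receptor gene Fcgr1 had -5.49 ± 0.73 in the knockout (adjusted p = 0.0135). In wild type it had -3.23 ± 0.73 (adjusted p = 0.111, 0.00446 with the replicate as a block). A fit blocked on replicate called 4 of the 8 lower in the knockout (Mrc1, Fcgr1, Adgre1 and Mertk) and 2 of 8 in wild type (Mrc1 and Fcgr1). The shares of all genes called lower by it were 13.7% and 4.71%. In wild type it called 1 of 8 higher, Lyz2 (1.73, adjusted p = 0.0269), which had 0.9 in the knockout and was not called there (adjusted p = 0.0952). Lyz2 is the locus that carries Cre in the knockout, and the effect of this on its reads was not tested. Csf1r (0.13 ± 0.40) and Cd68 (0.15 ± 0.32) were not called in the knockout (adjusted p = 0.925 and 0.881). Mrc1, Fcgr1, Adgre1, Mertk and Lyz2 were picked after their values were seen. Neutrophil markers (9, Mpo, Elane, Ltf and Ngp among them) summed to 146 to 1011 CPM at day 0 and 33.8 to 139 CPM with TNF, and markers of B cells, of T and NK cells and of mast cells and basophils to at most 10.3, 1.96 and 3.82 CPM. The summed stromal markers, led by Col1a1, were at 116 to 178 CPM in the replicate 1 libraries and at 3.91 to 32.1 CPM in the replicate 2 libraries. Of 5 erythroid markers, 3 were at 0 in all libraries. The part of these shifts in the results below was not tested. In bulk RNA, fewer cells of a type and less RNA per cell cannot be told apart.

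Differences between groups are given as log2 differences of log2(CPM + 0.5) ± the standard error (SE) of limma, a linear model fitted across all 12194 genes. A gene is called where the p-value of limma, adjusted by the Benjamini-Hochberg method over all genes, is under 0.05. No label says that the replicate numbers pair the libraries across groups. They were treated as pairing them because deviations of same-numbered libraries correlated in these same data. Calls with the replicate number as a block in the fit, which rest on that reading, stand beside those without it. The block leaves each log2 difference as it is and changes its error.

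The module was highest in the knockout with TNF. The summed level of the 34 genes was 3933 and 3657 CPM in untreated wild type (replicates 1 and 2), 4716 and 3700 CPM in wild type with TNF, and 3974 and 3259 CPM in the knockout at day 0. In the knockout with TNF it was 8331 and 9759 CPM, so the libraries of this group stood above the other 6. The sum was 2.10 and 2.99 times that of the knockout at day 0, within replicates 1 and 2, and 1.77 and 2.64 times that of wild type with TNF. Gene by gene, 26 of 34 members were higher in both libraries of the knockout with TNF than in each of the other 6 libraries, against 11.1% of all genes tested. The 8 that were not are Idh2, Suclg2, Mpc1, Got2, Glud1, Cpt1a, Acadl and Etfb.

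**Figure D1:**
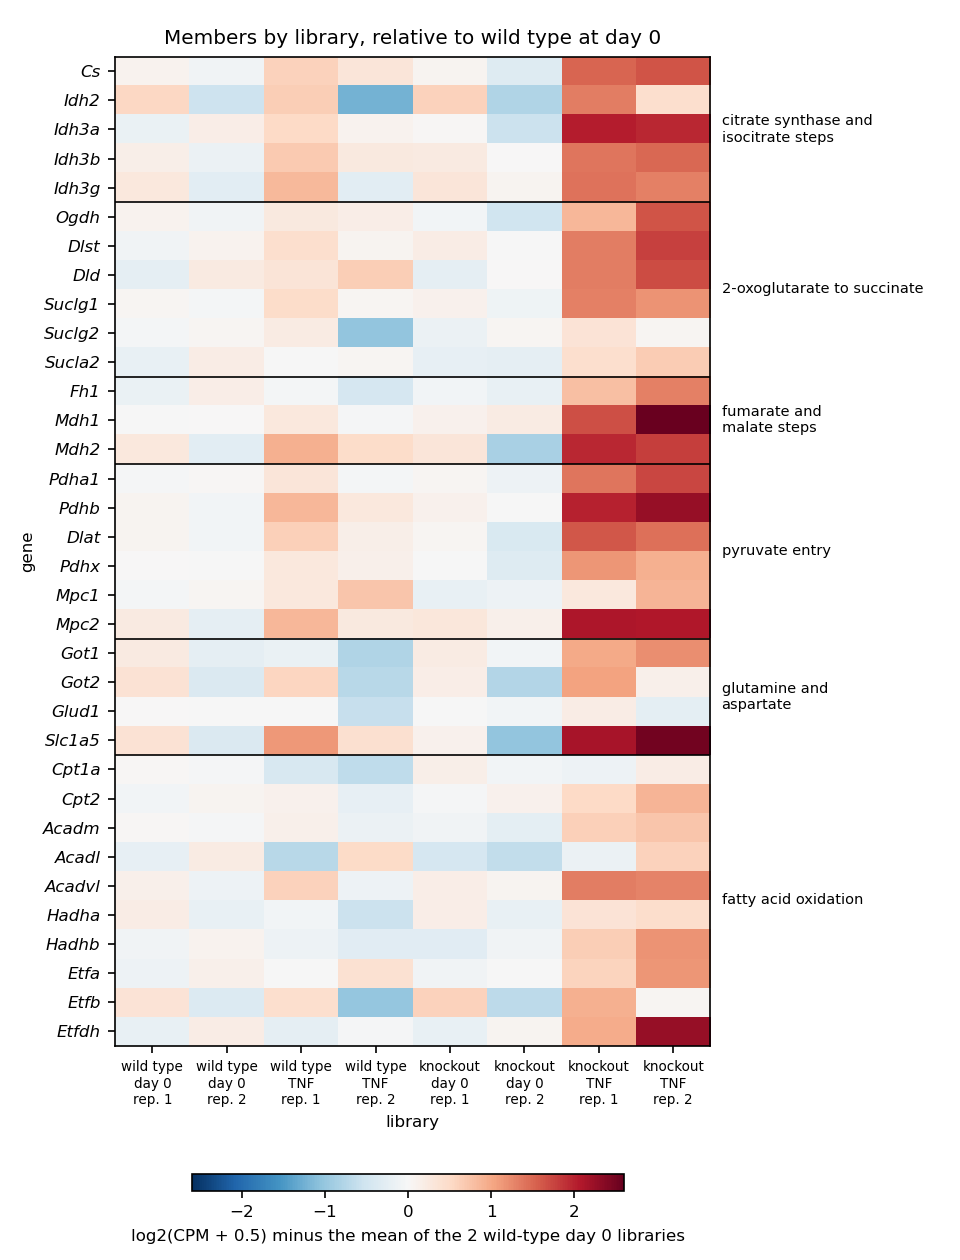
Each row is 1 of the 34 genes, grouped by role, and each column 1 library. Colour gives log2(CPM + 0.5) minus the mean of the 2 wild-type libraries at day 0. The columns of the knockout with TNF are the reddest for 26 genes, and Glud1 and Cpt1a stay near 0 in them.

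In the knockout, TNF raised 15 of the 34 members and lowered none by limma without the block, against 3.09% of all genes called higher. With the block 26 of 34 were called higher, against 12.2% of all genes, and none lower. The median log2 difference of the members was 1.18, and 33 of 34 were above 0, while the median of all genes tested was -0.10. In 28 of 34 members the libraries with TNF lay above those at day 0 with no overlap, as they did in 20.4% of all genes. The calls were spread unevenly over the roles: without the block they took in 9 of the 14 enzymes of the cycle itself, 5 of 6 genes of pyruvate entry, 1 of 4 of glutamine and aspartate use and 0 of 10 of fatty acid oxidation. With the block the numbers were 13, 5, 3 and 5. On reads recovered from the CPM, edgeR without the block called 14 members, against 2.57% of all genes, and DESeq2 called 22, against 8.23%. Whether the roles differ from each other was not tested.

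In wild type no member was called with TNF, against 0.812% of all genes called higher. With the block the count was also 0, against 5.54% of all genes, and 8 members had an unadjusted p under 0.05 (0 without the block). edgeR and DESeq2 on the recovered reads called 0 members too. The median log2 difference was 0.16, with 20 of 34 above 0 and a range from -0.54 (Cpt1a) to 0.77 (Slc1a5). In 11 of 34 members the wild-type libraries with TNF lay above those at day 0, as in 14.8% of all genes. All 6 genes of pyruvate entry and 11 of the 14 cycle enzymes had values above 0, and 8 of the 10 fatty acid oxidation genes had values below 0. Rescaling the libraries by median ratios moved the median of all genes in wild type from -0.12 to 0.00, the median of the members to 0.28 and the number above 0 to 24, with Got2, Cpt2, Acadm and Acadl changing sign. In the knockout it moved the median of all genes from -0.10 to -0.02, that of the members to 1.26 and the number above 0 to 34.

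At day 0 the differences between the genotypes in these genes were small. No member was called, with or without the block, against 0.0% of all genes called higher, and no member had an unadjusted p under 0.05. edgeR and DESeq2 called 0 members as well. The median log2 difference, knockout minus wild type, was -0.06, with 24 of 34 below 0, and the members ranged from -0.54 (Acadl) to 0.22 (Mpc2). With no overlap 5 members were lower and 1 was higher in the knockout, against 8.66% and 9.86% of all genes. Rbpj itself had -2.6 ± 0.27 and was not called by limma without the block (adjusted p = 0.238, 0.0264 with the block). The 0 calls among the members therefore do not show equal levels.

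After TNF all 34 members had values above 0 for knockout minus wild type, with a median log2 difference of 1.06 and a range from 0.08 (Mpc1) to 1.99 (Mdh1), where the median of all genes was 0.02. Without the block limma called 0 members, against 0.0082% of all genes (1 gene), and 26 members had an unadjusted p under 0.05. edgeR without the block called 0 members. With the block limma called 22 of 34 members higher, against 5.53% of all genes. edgeR with the block called 18, against 3.79% of all genes, and DESeq2 called 16, against 3.08%. In 27 of 34 members the knockout libraries lay above the wild-type ones, as in 18.8% of all genes. The 22 fell to 0 without replicate 2 of either group, and to 12 without either knockout library at day 0. Replicate 1 of wild type with TNF took the count to 14. This comparison shares the libraries of the knockout with TNF with the TNF response of the knockout.

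The difference between the TNF responses of the 2 genotypes was tested as an interaction. Its median over the members was 1.07, and it was above 0 in all 34, from 0.24 (Mpc1) to 2.00 (Slc1a5). No member passed limma's threshold without the block (against 0.0% of all genes) or with it (also 0.0%), and edgeR called 0. Unadjusted p-values under 0.05 were found for 19 members without the block and 29 with it. The lowest adjusted p of limma with the block was 0.104, for Idh3a, Dld and Dlat. DESeq2 called 3 members, Idh3a, Pdhb and Dlat, against 0.418% of all genes. Fits with 1 library left out leave a group with 1 library, and their counts are given only as a range in the last section.

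**Figure D2:**
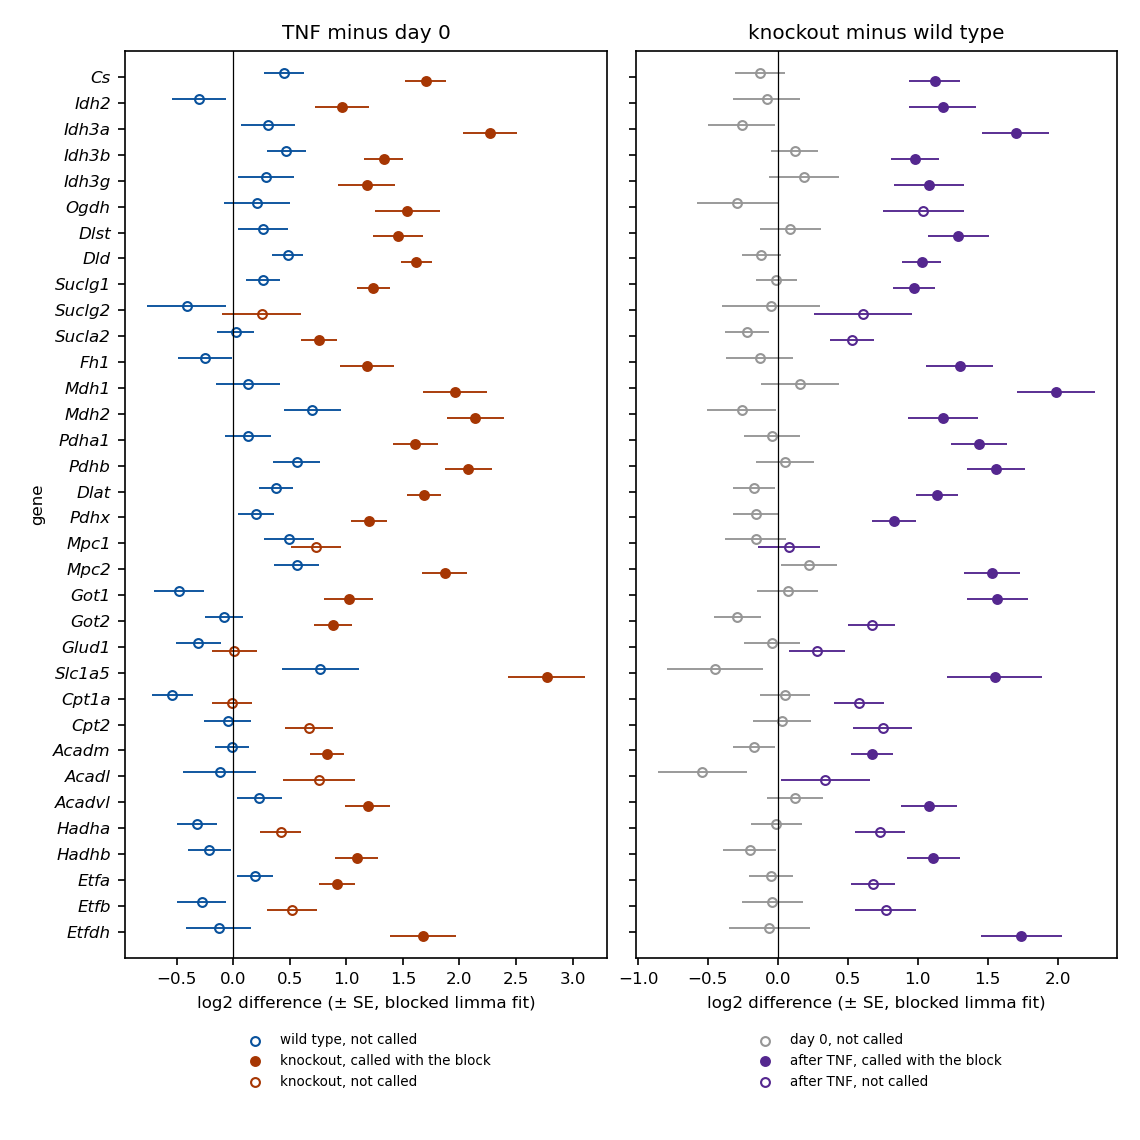
Points are log2 differences for each of the 34 genes, TNF minus day 0 (left) and knockout minus wild type (right), and lines are the SE of limma with the replicate block. Filled points passed the threshold with the block: 26 genes for TNF in the knockout, 22 for knockout against wild type after TNF, and none for TNF in wild type or for genotype at day 0.

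Citrate synthase (Cs) joins acetyl-CoA and oxaloacetate in the first step of the cycle. Its level was 301 and 263 CPM in untreated wild type, 424 and 350 CPM in wild type with TNF, 294 and 224 CPM in the knockout at day 0, and 804 and 872 CPM in the knockout with TNF. The last group lay far above the others, and the wild-type libraries with TNF lay above those at day 0. In the knockout the difference was 1.70 ± 0.25 (3.26-fold; limma adjusted p = 0.0183, 0.00199 with the block), and in wild type it was 0.45 ± 0.25 (adjusted p = 0.590). Knockout minus wild type after TNF was 1.12 ± 0.25 (adjusted p = 0.194, 0.0235 with the block).

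Idh3a, Idh3b and Idh3g encode the catalytic alpha and the further subunits of the NAD-dependent isocitrate dehydrogenase. Idh3a was at 80.5 and 102 CPM in untreated wild type, 130 and 96.7 CPM with TNF, 92.7 and 61.0 CPM in the knockout at day 0, and 374 and 355 CPM in the knockout with TNF. It rose in the knockout by 2.27 ± 0.29 (4.82-fold, adjusted p = 0.0127, 0.00199 with the block), the largest difference among the 14 cycle enzymes, against 0.31 ± 0.29 in wild type. Idh3b rose by 1.33 ± 0.25 in the knockout (adjusted p = 0.0348). Idh3g had 1.18 ± 0.40 and was called with the block alone (adjusted p = 0.0190). The ratio of Idh3a to Idh3b reads was 0.499 to 0.932 in the 6 libraries of the other groups and 1.17 and 1.03 in the knockout with TNF. That ratio is free of a change in depth, and its difference between groups was not tested.

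Idh2, the NADP-dependent mitochondrial isocitrate dehydrogenase, followed the replicate number more than the group. It was at 133 and 62.5 CPM in untreated wild type, 142 and 38.3 CPM with TNF, 139 and 53.0 CPM in the knockout at day 0, and 229 and 123 CPM in the knockout with TNF. Replicate 1 was higher than replicate 2 in every group, and the groups overlapped. Its difference with TNF in the knockout was 0.96 ± 0.77 without the block (adjusted p = 0.590) and had an SE of 0.24 with it (adjusted p = 0.0322). Got2 and Etfb, described further on, showed the same order of the replicates in all 4 groups. So did Idh3g, Suclg1, Mdh2, Dlat, Pdhx, Mpc2, Glud1 and Acadvl.

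From 2-oxoglutarate to succinate, 4 of 6 genes rose with TNF in the knockout, and 5 of 6 with the block. Ogdh, Dlst and Dld encode the E1, E2 and E3 components of the 2-oxoglutarate dehydrogenase complex, and Dld serves the pyruvate complex as well. Dld was at 128 and 178 CPM in untreated wild type, 190 and 234 CPM with TNF, 128 and 151 CPM in the knockout at day 0, and 377 and 489 CPM in the knockout with TNF. Its rise in the knockout was 1.62 ± 0.28 (adjusted p = 0.0275, 0.00134 with the block). In wild type Dld had 0.48 ± 0.28, and its adjusted p with the block, 0.0814, was the lowest of the members there. Dlst rose by 1.46 ± 0.26 (adjusted p = 0.0315). Ogdh was at 576 and 993 CPM in the knockout with TNF, against 222 to 377 CPM in the other libraries, and its difference of 1.54 ± 0.33 lay just inside the threshold (adjusted p = 0.0490).

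Succinyl-CoA ligase pairs the shared alpha subunit Suclg1 with either the ATP-specific beta subunit Sucla2 or the GTP-specific beta subunit Suclg2. Suclg1 was at 55.4 to 65.0 CPM at day 0, 84.0 and 62.6 CPM in wild type with TNF, and 150 and 136 CPM in the knockout with TNF. It rose by 1.24 ± 0.24 in the knockout (adjusted p = 0.0393). Sucla2 had 0.76 ± 0.23 and was called with the block alone (adjusted p = 0.0172). Suclg2 was not called: it was at 26.7 and 21.4 CPM in the knockout with TNF and at 18.7 and 21.5 CPM at day 0, a difference of 0.25 ± 0.43 (adjusted p = 0.854). The ratio of Suclg1 to Suclg2 reads was 2.58 to 3.50 in 5 libraries, 6.29 in replicate 2 of wild type with TNF, and 5.61 and 6.37 in the knockout with TNF. With its lowest level, 9.97 CPM, Suclg2 stood apart in that wild-type library.

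Fumarase (Fh1) makes malate, and Mdh1 (cytosolic) and Mdh2 (mitochondrial) encode the malate dehydrogenases, which together carry reducing equivalents across the membrane in the malate-aspartate shuttle. Mdh1 was at 181 and 182 CPM in untreated wild type, 221 and 178 CPM with TNF, 195 and 210 CPM in the knockout at day 0, and 578 and 1075 CPM in the knockout with TNF. The 6 libraries of the other groups lay close together, and the 2 of the knockout with TNF lay far above them and apart from each other. The rise in the knockout was 1.96 ± 0.33 (3.89-fold, adjusted p = 0.0261), against 0.13 ± 0.33 in wild type. Knockout minus wild type after TNF was 1.99 ± 0.33, the largest of the members (adjusted p = 0.132, 0.0203 with the block).

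Mdh2 was at 261 and 180 CPM in untreated wild type, 412 and 301 CPM with TNF, 271 and 121 CPM in the knockout at day 0, and 848 and 753 CPM in the knockout with TNF. It rose in the knockout by 2.14 ± 0.43 (4.40-fold, adjusted p = 0.0418, 0.00257 with the block), and had 0.70 ± 0.43 in wild type (adjusted p = 0.644, 0.121 with the block). Fh1 had 1.18 ± 0.28 in the knockout and was called with the block alone (adjusted p = 0.0163). The stretch upstream of Mdh2 is shown because among the 14 cycle enzymes only Idh3a rose more. It is the part of the RefSeq promoter window that carries no annotated exon, at chr5:135778399-135778479 on the plus strand of GRCm38.p6, and capitals mark GGGCGG, the GC box.
Mdh2: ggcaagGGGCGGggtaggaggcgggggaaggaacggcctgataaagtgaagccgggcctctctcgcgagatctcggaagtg

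Pyruvate entry gave 5 calls among 6 genes in the knockout, with a median of 1.65. Pdha1 and Pdhb encode the E1 alpha and beta subunits of the pyruvate dehydrogenase complex, Dlat its E2 core and Pdhx the protein that holds E3 to that core. Pdhb was at 49.7 and 45.6 CPM in untreated wild type, 86.8 and 57.5 CPM with TNF, 51.2 and 47.6 CPM in the knockout at day 0, and 192 and 230 CPM in the knockout with TNF. The wild-type libraries with TNF lay above those at day 0 and far below the knockout ones. Its rise in the knockout was 2.08 ± 0.27 (4.22-fold) and had the lowest adjusted p of the members without the block (0.0126), and in wild type the difference was 0.56 ± 0.27 (adjusted p = 0.503). Pdha1 rose by 1.61 ± 0.25 (adjusted p = 0.0206), Dlat by 1.69 ± 0.27 (adjusted p = 0.0227) and Pdhx by 1.20 ± 0.25 (adjusted p = 0.0471). The ratio of Pdhb to Pdha1 reads was 0.307 to 0.358 in the day 0 libraries, 0.476 and 0.410 in wild type with TNF, and 0.4999 and 0.469 in the knockout with TNF. So the E1 beta transcript gained on the E1 alpha transcript with TNF in all 4 same-numbered pairs of libraries, with no test of that ratio.

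The region before Pdhb is shown as that of the gene of pyruvate entry with the largest rise. It lies at chr14:8173026-8173175 of GRCm38.p6, read on the minus strand, with no annotated exon in it. Capitals mark GGGCGG and ATTGG, the reverse complement of CCAAT, which occurs at 2 places.
Pdhb: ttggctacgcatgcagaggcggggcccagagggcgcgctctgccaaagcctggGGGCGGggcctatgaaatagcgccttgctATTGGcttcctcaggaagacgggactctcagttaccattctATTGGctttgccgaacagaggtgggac

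The mitochondrial pyruvate carrier is made of Mpc1 and Mpc2. Mpc2 was at 23.2 and 16.7 CPM in untreated wild type, 36.2 and 23.6 CPM with TNF, 24.3 and 21.8 CPM in the knockout at day 0, and 86.2 and 84.7 CPM in the knockout with TNF. It rose by 1.87 ± 0.31 in the knockout (3.66-fold, adjusted p = 0.0257). Mpc1 was low, at 8.58 to 18.6 CPM in all libraries, and had 0.73 ± 0.35 in the knockout (adjusted p = 0.323, 0.0554 with the block) and 0.49 ± 0.35 in wild type. Knockout minus wild type after TNF was 1.53 ± 0.31 for Mpc2 (adjusted p = 0.0191 with the block) and 0.08 ± 0.35 for Mpc1 (adjusted p = 0.847 with the block). The ratio of Mpc2 to Mpc1 reads was 1.44 to 3.01 in the other 6 libraries and 7.20 and 4.56 in the knockout with TNF. A share of 23.1% of the annotated exon bases of Mpc1 is also exon of another gene (4930506C21Rik), and 16.1% of those of Pdha1 is also exon of Map3k15, and reads in such bases cannot be assigned where the counting is not stated to use strand.

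Among the genes of glutamine and aspartate use, Slc1a5 moved most. It encodes ASCT2, a plasma membrane carrier of glutamine and other neutral amino acids. Its level was 49.0 and 28.6 CPM in untreated wild type, 82.3 and 50.0 CPM with TNF, 40.7 and 18.2 CPM in the knockout at day 0, and 167 and 214 CPM in the knockout with TNF. The wild-type libraries with TNF lay just above those at day 0, and the knockout ones with TNF far above both. The rise in the knockout was 2.77 ± 0.48 (6.83-fold, adjusted p = 0.0289, 0.00311 with the block), the largest of the 34, and within replicates it was 4.09-fold and 11.8-fold. In wild type the difference was 0.77 ± 0.48 (1.70-fold, adjusted p = 0.660, 0.196 with the block).

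Got1 (cytosolic) and Got2 (mitochondrial) encode the aspartate aminotransferases of the malate-aspartate shuttle. Got1 was at 95.0 and 68.5 CPM in untreated wild type, 71.6 and 46.4 CPM with TNF, 93.4 and 77.2 CPM in the knockout at day 0, and 160 and 186 CPM in the knockout with TNF. In both same-numbered pairs it was lower with TNF in wild type (-0.48 ± 0.31, adjusted p = 0.668) and higher with TNF in the knockout (1.02 ± 0.31, adjusted p = 0.122, 0.0192 with the block). The difference of these responses was 1.5 ± 0.43 and did not pass the threshold (adjusted p = 0.805, 0.116 with the block). Knockout minus wild type after TNF was 1.57 ± 0.31 (adjusted p = 0.0202 with the block). Got2 was at 160 and 85.0 CPM in the knockout with TNF and 87.3 and 45.6 CPM at day 0, so the groups overlapped. It was called with the block alone (0.88, with an SE of 0.58 without the block and 0.17 with it, adjusted p = 0.491 and 0.0134).

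Glud1 encodes glutamate dehydrogenase, which turns glutamate into 2-oxoglutarate, and had a difference near 0 in the knockout, as had Cpt1a. It was at 450 and 444 CPM in untreated wild type, 442 and 295 CPM with TNF, 445 and 428 CPM in the knockout at day 0, and 509 and 377 CPM in the knockout with TNF. In the knockout the libraries with TNF overlapped with those at day 0, while in wild type both lay below those at day 0. The difference was 0.01 ± 0.29 in the knockout (adjusted p = 0.995) and -0.31 ± 0.29 in wild type (adjusted p = 0.850). Per kilobase of exon, Glud1 had the highest level of the 34 genes at day 0, 106 ± 0.956 CPM per kb in wild type (SD, n = 2). In the knockout with TNF its 105 ± 22.2 CPM per kb was below that of Mdh1 (322 ± 137), Mdh2 (225 ± 18.9), Cs (145 ± 8.25), Ogdh (144 ± 54.0), Dld and Pdha1. The region before Glud1 is shown beside those of Mdh2 and Pdhb as that of a gene that was not called. It lies at chr14:34310577-34310726 of GRCm38.p6 on the plus strand, and capitals mark GGGCGG on either strand, here at 3 places, of which 2 are adjacent.
Glud1: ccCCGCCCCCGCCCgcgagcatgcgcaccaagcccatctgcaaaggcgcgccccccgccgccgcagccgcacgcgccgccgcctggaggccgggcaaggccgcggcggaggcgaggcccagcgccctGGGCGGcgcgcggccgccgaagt

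**Figure D3:**
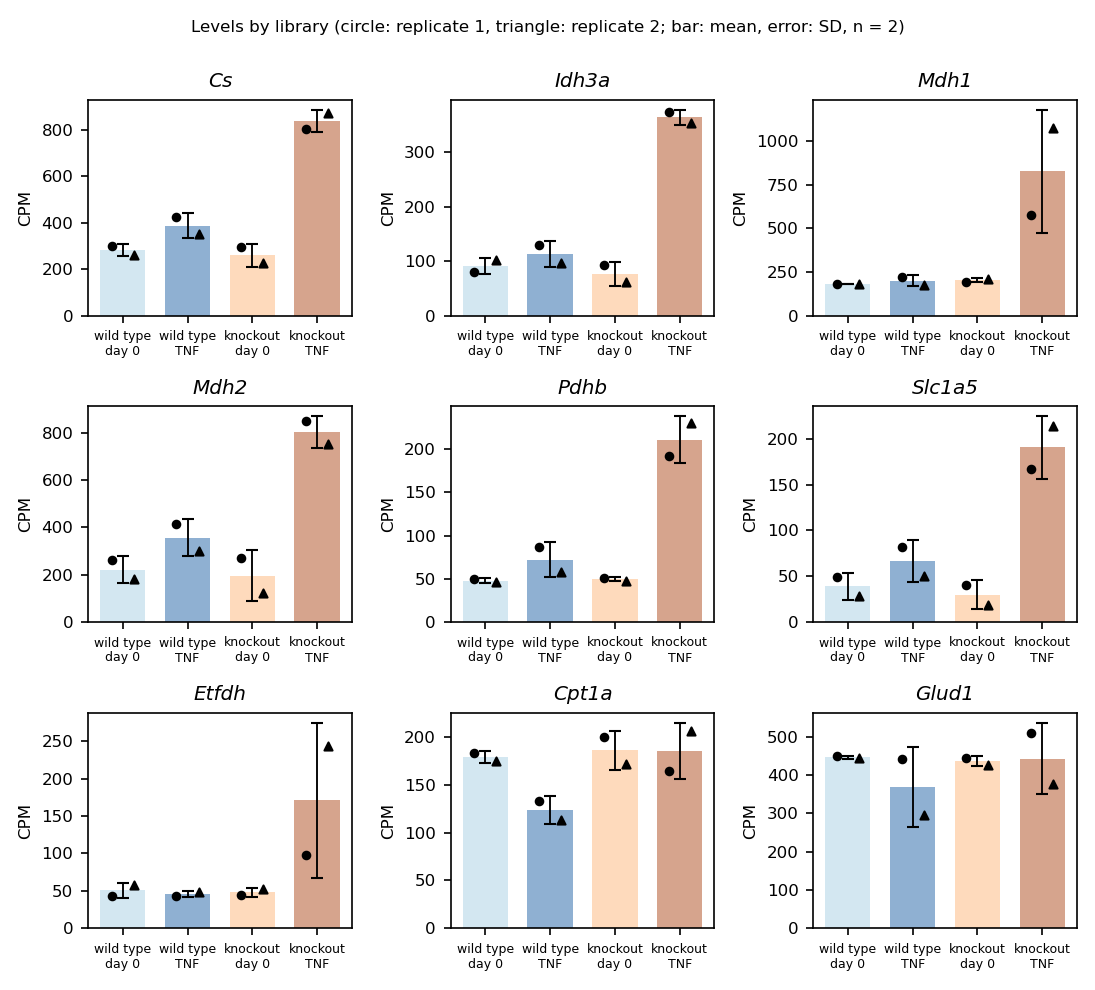
Bars are the mean CPM of 9 genes in the 4 groups, error bars the SD (n = 2), circles replicate 1 and triangles replicate 2. In 7 genes, Cs to Etfdh, the bar of the knockout with TNF is the tallest and its libraries lie above all others, while those of Cpt1a and Glud1 overlap with day 0.

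In fatty acid oxidation limma without the block called 0 of 10 genes with TNF in the knockout, where 6 had an unadjusted p under 0.05, edgeR called 1 and DESeq2 called 4. With the block limma called 5 (Acadm, Acadvl, Hadhb, Etfa and Etfdh), and the median over the 10 was 0.80. Cpt1a and Cpt2 encode the carnitine palmitoyltransferases of the outer and inner membrane, which carry long-chain fatty acids into the matrix. Cpt1a was at 184 and 174 CPM in untreated wild type, 133 and 113 CPM with TNF, 200 and 171 CPM in the knockout at day 0, and 164 and 206 CPM in the knockout with TNF. The wild-type libraries with TNF were the lowest 2 of the 8, and the other groups overlapped. Its difference was -0.54 ± 0.23 in wild type (adjusted p = 0.429, 0.110 with the block) and -0.01 ± 0.23 in the knockout (adjusted p = 0.991). Cpt2 was at 36.6 and 47.2 CPM in the knockout with TNF, above the 21.8 to 27.6 CPM of the other libraries, and its 0.67 ± 0.27 lay just outside the threshold with the block (adjusted p = 0.0564).

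Acadm, Acadl and Acadvl encode acyl-CoA dehydrogenases for medium, long and very long chains. Acadm was at 62.4 to 81.7 CPM in the libraries of the other groups and at 114 and 122 CPM in the knockout with TNF, a difference of 0.83 ± 0.22 from day 0 (adjusted p = 0.0877, 0.0117 with the block). Acadvl had 1.19 ± 0.29 (adjusted p = 0.0739, 0.00912 with the block), and 42.9% of its exon bases are also exon of Dvl2. Acadl was at 82.4 and 139 CPM in the knockout with TNF and at 55.2 and 129 CPM in wild type with TNF, so these groups overlapped. In the knockout at day 0 it was at 67.7 and 58.5 CPM, with no overlap with the knockout libraries with TNF. Its difference from day 0 in the knockout, 0.76 ± 0.46, was not called without or with the block (adjusted p = 0.449 and 0.123).

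Hadha and Hadhb encode the alpha and beta subunits of the mitochondrial trifunctional protein, which carries out the last 3 steps of each round on long chains, and the genes lie head to head with 85 bases between them. Hadhb was at 37.3 and 42.3 CPM in untreated wild type, 36.1 and 32.4 CPM with TNF, 32.2 and 37.0 CPM in the knockout at day 0, and 61.7 and 89.2 CPM in the knockout with TNF. Hadha was at 203 and 156 CPM, 169 and 120 CPM, 200 and 155 CPM, and 228 and 245 CPM in the same groups. Both were above every other library in the knockout with TNF. The difference from day 0 there was 1.09 ± 0.27 for Hadhb (adjusted p = 0.0757, 0.0104 with the block) and 0.42 ± 0.28 for Hadha (adjusted p = 0.493, 0.135 with the block). With TNF in wild type, Hadha and Hadhb, like Got1, were lower in both same-numbered pairs and were not called (-0.32 ± 0.28 and -0.21 ± 0.27). The ratio of Hadhb to Hadha reads was 0.161 to 0.271 in the other 6 libraries and 0.270 and 0.364 in the knockout with TNF, so the groups met, and it was higher in replicate 2 in every group. The whole stretch between the pair is at chr5:30155163-30155247 of GRCm38.p6. It is given on the plus strand, which is that of Hadhb, with GGGCGG in capitals at 2 places.
Hadhb: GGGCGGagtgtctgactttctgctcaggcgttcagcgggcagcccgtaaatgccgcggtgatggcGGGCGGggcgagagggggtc

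Etfa and Etfb encode the electron transfer flavoprotein, and Etfdh the dehydrogenase that passes its electrons on to ubiquinone. Etfdh was at 43.7 and 57.8 CPM in untreated wild type, 42.9 and 48.9 CPM with TNF, 44.0 and 52.5 CPM in the knockout at day 0, and 97.9 and 244 CPM in the knockout with TNF. The other groups overlapped, and the 2 knockout libraries with TNF lay above them and far apart from each other. The difference in the knockout was 1.68 ± 0.44 (adjusted p = 0.0855, 0.00909 with the block), the largest of the fatty acid oxidation genes. Knockout minus wild type after TNF was 1.74 ± 0.44 (adjusted p = 0.0240 with the block). Etfa had 0.92 ± 0.28 in the knockout (adjusted p = 0.0102 with the block) and Etfb 0.52 ± 0.65 (adjusted p = 0.127 with the block). Etfb was higher in replicate 1 than in replicate 2 in all 4 groups (81.2 and 44.2 CPM in the knockout with TNF), and 58.2% of its exon bases are also exon of other genes, Gm45233 among them.

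The 15 calls of the knockout response without the block rest on the 8 libraries together. Without replicate 2 of the knockout, at day 0 or with TNF, the count was 0, and it was 3 without replicate 1 of the knockout at either time or without either wild-type library at day 0. In a fit of the 4 knockout libraries alone it was also 0. With the block the 26 calls became 13 without replicate 2 of the knockout at day 0 and 16 without replicate 2 of the knockout with TNF. Of the 26, 13 passed in every one of the 8 blocked fits with 1 library left out: Cs, Idh3a, Idh3b, Dld, Suclg1, Mdh1, Mdh2, Pdha1, Pdhb, Dlat, Pdhx, Mpc2 and Slc1a5. No gene of fatty acid oxidation is among them.

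The other genes of the same pathways were read from 3 lists. Of 32 listed genes of the TCA cycle and pyruvate use, 29 were tested (Irg1 is the former symbol of Acod1, which is also on the list). In the knockout TNF raised 4 of the 29 and lowered 0, against 3.09% and 2.01% of all genes, or 12 and 1 with the block (12.2% and 13.7%), and the median was 0.63. In wild type it raised 1 and lowered 0 (0.812% and 0.369% of all genes), or 4 and 1 with the block (5.54% and 4.71%), and the median was 0.18. The succinate dehydrogenase subunits Sdha (1.42 ± 0.26, adjusted p = 0.0338), Sdhb (1.46 ± 0.23, adjusted p = 0.0229) and Sdhd (1.35 ± 0.21, adjusted p = 0.0215) rose in the knockout. The membrane anchor subunit Sdhc (1.24 ± 0.54) and Sdhaf1, an assembly factor of that enzyme (1.41 ± 0.52), were called there with the block alone (adjusted p = 0.0115 and 0.00678).

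Irg1, which makes itaconate from cis-aconitate, had its highest levels in wild type with TNF. It was at 2.73 and 5.53 CPM in untreated wild type and 1112 and 1314 CPM with TNF, and at 3.47 and 10.2 CPM in the knockout at day 0 and 460 and 320 CPM with TNF. It rose by 8.10 ± 0.53 in wild type (adjusted p = 0.00679) and by 5.88 ± 0.53 in the knockout (adjusted p = 0.00527). Knockout minus wild type after TNF was -1.65 ± 0.53, which did not pass the threshold (adjusted p = 0.296, 0.0619 with the block). Pyruvate carboxylase (Pcx), which makes oxaloacetate from pyruvate, was at 82.8 and 46.3 CPM in wild type with TNF and 35.9 and 14.1 CPM in the knockout with TNF, with 2.62 to 11.3 CPM at day 0. It was called only with the block: by 2.93 in wild type (adjusted p = 0.00158), by 2.17 in the knockout (adjusted p = 0.00176) and by -1.44 for knockout minus wild type after TNF (adjusted p = 0.0220). Pdk3, a kinase that inhibits pyruvate dehydrogenase, had 1.35 ± 0.53 in the knockout and was called with the block alone (adjusted p = 0.0482). It was at 23.5 and 24.2 CPM there at day 0 and at 33.9 and 111 CPM with TNF, 1.44-fold and 4.60-fold within replicates 1 and 2. In wild type with TNF it was at 27.8 and 34.7 CPM. Idh1, Pdp1 and Me1 were picked after their values were seen. The cytosolic NADP-dependent Idh1 was at 317 and 434 CPM in wild type with TNF and 198 and 204 CPM in the knockout with TNF, a difference of -0.89 that passed with the block (adjusted p = 0.0278). For knockout minus wild type after TNF, the block gave 3 of the 29 higher and 2 lower (Pcx and Idh1). Of all 12194 genes it called 674 higher and 457 lower. The median of the 29 in that comparison was 0.38, with 20 above 0, and 0 were called without the block. Pdp1, a phosphatase that activates pyruvate dehydrogenase, was lower with TNF by the blocked fit in wild type (-1.07, adjusted p = 0.0357) and in the knockout (-0.85, adjusted p = 0.0381). Malic enzyme 1 (Me1) was higher with TNF by that fit in both genotypes, by 1.18 and 1.15 (adjusted p = 0.0256 and 0.0134). Acly, which makes acetyl-CoA from citrate in the cytosol, had 0.05 ± 0.41 in the knockout and -0.20 ± 0.41 in wild type. Pdk1 (1.28 ± 0.78 in the knockout) and the cytosolic aconitase Aco1 (0.59 ± 0.26) were not called either (adjusted p = 0.451 and 0.278).

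Of 24 genes of glutamine and glutamate use, 22 were tested. TNF raised 1 in each genotype, Slc7a11, the cystine-glutamate exchanger, by 7.17 ± 0.72 in wild type (adjusted p = 0.0173) and 4.10 ± 0.72 in the knockout (adjusted p = 0.0302). Each count is 1 of 22, where 0.812% of all genes were raised in wild type and 3.09% in the knockout. With the block it raised 4 of 22 in the knockout, against 12.2% of all genes, the others being Gfpt1, which uses glutamine to make glucosamine phosphate (1.59, adjusted p = 0.0205), Aldh4a1, a mitochondrial enzyme that makes glutamate from a proline product (1.47, adjusted p = 0.00901), and the alanine aminotransferase Gpt2 (0.76, adjusted p = 0.0429). With the block in wild type 1 was lower (4.71% of all genes were), Slc25a13, an aspartate-glutamate carrier (-1.11, adjusted p = 0.0410). The list's median was 0.24 in the knockout and -0.03 in wild type. The most abundant genes of the list that were not called were Slc3a2, Glul (glutamine synthetase) and Slc38a2, with -0.40 ± 0.26, -0.19 ± 0.45 and 0.33 ± 0.24 in the knockout.

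Of 38 further genes of fatty acid oxidation and its regulation, 35 were tested. TNF raised 3 and lowered 1 of the 35 in the knockout, against 3.09% and 2.01% of all genes, and 12 and 2 with the block, against 12.2% and 13.7%. In wild type it raised 1 and lowered 1, against 0.812% and 0.369% of all genes, and 4 and 1 with the block, against 5.54% and 4.71%. The list's median was 0.41 in the knockout and -0.08 in wild type. Acsl1, an acyl-CoA synthetase, rose in both genotypes, by 4.05 ± 0.58 in wild type (adjusted p = 0.0376) and 2.76 ± 0.58 in the knockout (adjusted p = 0.0482). The acyl-CoA dehydrogenase Acad10 (2.17 ± 0.40, adjusted p = 0.0341) and Eci2, an enoyl-CoA isomerase (1.08 ± 0.23, adjusted p = 0.0489), rose in the knockout, and Eci2 is named as the remaining call there. Acaa2, the thiolase of the last step (1.79 ± 0.39), the hydroxyacyl-CoA dehydrogenase Hsd17b10 (1.92 ± 0.41), the acetyl-CoA carboxylase Acacb (2.18 ± 0.48) and the carnitine palmitoyltransferase Cpt1c (2.52 ± 0.72) were called there with the block alone (adjusted p = 0.0124, 0.00230, 0.00724 and 0.0163). Acad11 lay just outside the threshold without the block (1.20 ± 0.25, adjusted p = 0.05001, 0.00483 with the block). Pparg, a nuclear receptor that controls lipid genes, was at 29.6 to 44.2 CPM at day 0 and at 1.16 to 2.13 CPM with TNF. It fell by 3.98 in wild type (± 0.38, adjusted p = 0.0151) and by 4.38 in the knockout (± 0.38, adjusted p = 0.00513). The fatty acid transporter Cd36 had -2.09 in the knockout (± 0.78, adjusted p = 0.207, 0.0864 with the block) and was at 813 and 178 CPM there with TNF, against 2255 and 1161 CPM at day 0. The peroxisomal thiolase Acaa1a was called with the block alone, by 1.64 in wild type (adjusted p = 0.00445) and 0.84 in the knockout (adjusted p = 0.0176). Acsl5 and the fatty acid binding protein Fabp5 were not called (-0.18 ± 0.22 and -0.48 ± 0.79 in the knockout).

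**Figure D4:**
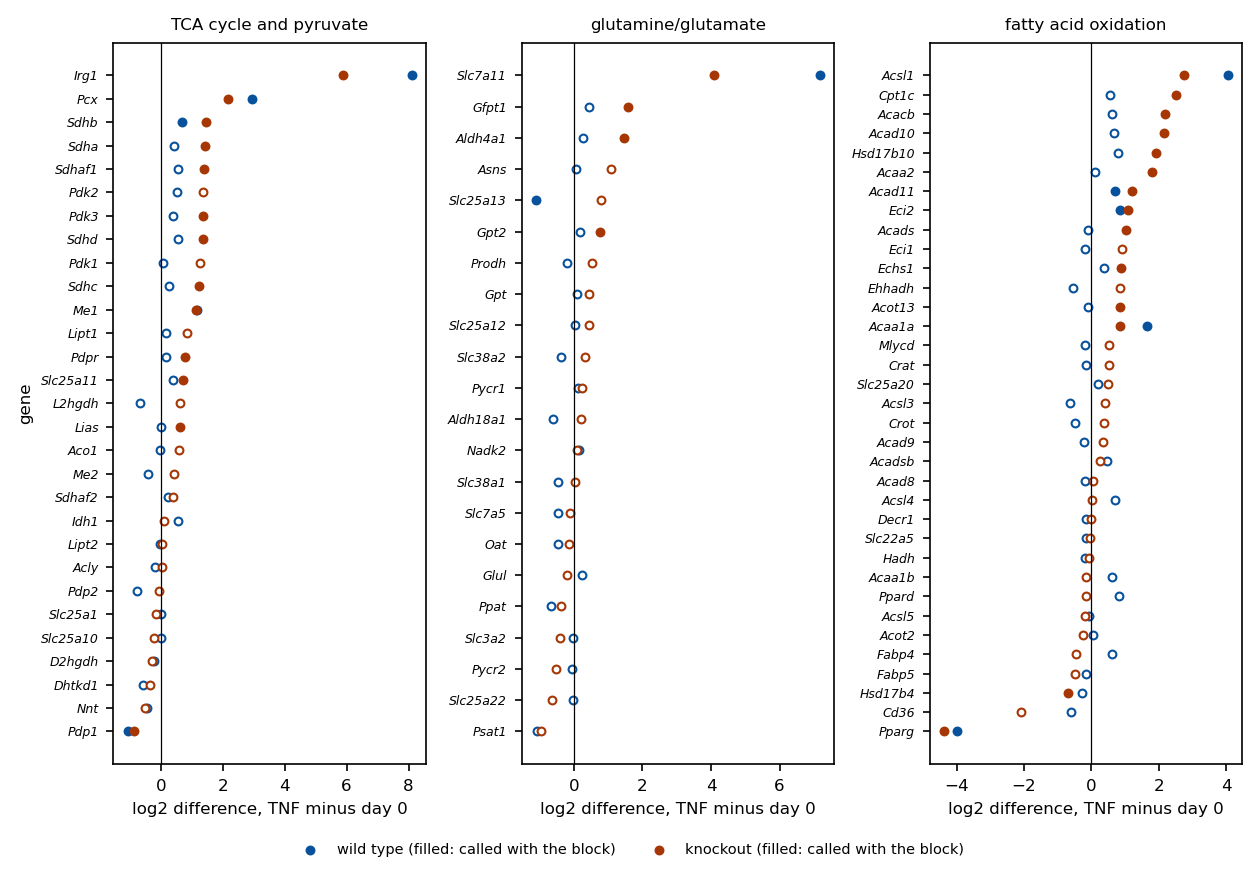
Points are log2 differences, TNF minus day 0, for the tested genes of the 3 further lists, in wild type (blue) and in the knockout (brown), and filled points passed limma's threshold with the replicate block. The succinate dehydrogenase subunits are further to the right in the knockout, Irg1, Pcx, Slc7a11 and Acsl1 further to the right in wild type.

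Promoter windows of 300 bases (250 before to 50 after the start of transcription, RefSeq, GRCm38.p6) were given for 32 of the 34 members, not for Idh3a or Slc1a5, and were searched for 6 motifs on both strands. GGGCGG, the GC box, was in 22 of the 32 windows (68.8%), as in 68.0% of the tested genes with a window and 38.2% of all genes with one. CCAAT was in 17 of 32 (53.1%), against 42.8% of the tested genes. AAGGTCA, a core motif of several nuclear receptors, was in 3 of 32 (9.38%: Ogdh, Got1 and Acadm), against 4.01% of the tested genes. The longer TCAAGGTCA, which contains it and is the element of the oestrogen-related receptors, was in 0 of 32 and in 0.310% of the tested genes. CACGTG, the E-box, was in 1 (Ogdh; 3.12%, against 11.9%), and the palindromic element of the nuclear respiratory factor NRF-1 in 1 (Etfdh; 3.12%, against 2.38%). No test was made of these shares, and a match is only a run of letters in the window.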

How the data were processed

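Gene expression in the 8 libraries (4 groups of 2) was deposited by the authors as CPM, scaled to the reads counted in genes, in 1 table. The tools named in the submitters' processing notes are fastp, HISAT2, HTSeq and edgeR, and the build is mm10. Versions, settings, annotation and strand use are not given in the sources used here. All CPM were whole multiples of 1 read (100% of values within 0.01), so reads were recovered; depth was 9855859 to 35653203 reads, and lower depth widens the error of low genes. Replicates differed by more than sampling noise.

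Limma (3.58.1, R 4.3.3; lmFit, eBayes with trend, 2-sided) was run on log2(CPM + 0.5), which understates changes of low genes, over the 12194 genes (49.9% of the table) that reached 1 CPM in 2 or more libraries. Group was the only term, over all 8 libraries, with 4 residual degrees of freedom, for 5 contrasts, each adjusted by Benjamini-Hochberg over all genes. A blocked fit, with replicate number as an added term, had 3. The series design speaks of independent experiments, and no label says that the number marks one. Deviations of same-numbered libraries from their group means correlated in all 6 pairs of groups (r between 0.577 and 0.805, computed over genes, which are no independent replicates), so the numbers were treated as pairing the libraries. Alternatives were edgeR 4.0.16 (quasi-likelihood, with and without the block) and DESeq2 1.42.0 on recovered reads, other pseudocounts (0.1 and 1), low-value filters (none, or 5 CPM) and scalings, fits of 4 libraries, and leaving out each library. The fits were also run on simulated reads. Those were given the same replicate shift in all groups, so that run cannot show whether the real libraries are paired.

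The members and lists were chosen with earlier results of these data known. Named genes were all members, Rbpj, and of each further list those called in either fit (at most 8, by size) with up to 3 abundant genes not called; those named outside this rule are marked, and up to 4 of each marker list were named. A few genes of the further lists are not reported here and are left out of those lists' counts and medians. Positions, exon lengths and overlaps come from GENCODE M21 (GRCm38), promoters from RefSeq (GRCm38.p6).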

Additional observations from a re-analysis of the deposited data

How the results depend on the processing

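No direction of a call reversed under any alternative run. For TNF in the knockout, 15 members were called without the block, 26 with the replicate block, 27 by edgeR with the replicate block and 0 in the fit of 4 libraries. Leaving out 1 library gave 0 to 12 calls without the block and 13 to 27 with it. For knockout against wild type after TNF, the replicate block gave 22 calls, edgeR with the block 18 and DESeq2 16, against 0 without the block, and leaving out 1 library gave 0 to 23 calls with the block. For the difference of the responses, DESeq2 gave 3 calls, and the blocked fits without 1 library gave 0 to 8. For TNF in wild type those fits gave 0 to 1. At day 0 no setting gave a call. The block changed no other count of members called. Pseudocounts, filters and scalings left the counts within 1.5 times of those reported. Among single members, 951 alternative values kept their side of the threshold, 236 gained a call and 109 lost one. The cause of these changes was not tested. With 2 libraries a group and as few as 9855859 reads, Mpc1 (0.73 ± 0.35) and Hadha (0.42 ± 0.28) in the knockout were not called by limma or edgeR, with or without the block, or by DESeq2.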
